A study of Mus musculus with 24 samples.

Results

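The genes described here are 10 components of insulin-like growth factor (IGF) signalling in mouse cerebellum: the ligands Igf1 and Igf2, the receptor Igf1r, the binding proteins Igfbp2, Igfbp3, Igfbp4, Igfbp5 and Igfbp7, the protease Pappa and its inhibitor Stc2. They were taken by name, with every array probe whose transcript accession maps to one of them, and had 13 probes in all. All 10 were among the 16935 genes that passed a filter on dim probes, of 22911 genes with a symbol on the array. The list was chosen by values of the comparison of Derlin-1 knockouts (KO) with controls without 4PBA. The members' values in that comparison are therefore given as a description, without a test, and so are those of both 4PBA comparisons in the Derlin-1 line, which share its arrays.

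Cerebella of C57BL/6 mice aged 28 days were measured on 24 arrays, 2 for each of 12 groups. Controls were Derlin-1flox/flox or Derlin-2flox/flox mice. KO mice carried the same floxed alleles and a Cre recombinase under the nestin promoter, which is active in neural progenitors, so an effect of Cre itself and of the deletion cannot be told apart. 4-phenylbutyrate (4PBA), a chemical chaperone, was given at 200 mg/kg, and water as vehicle, by daily intraperitoneal injection between days 14 and 28. The Derlin-1 line had a series with numbered and a series with lettered replicates (8 arrays each). The lettered arrays that do not name 4PBA name no vehicle either and are called untreated. Arrays described as without 4PBA are the vehicle and the untreated ones. The Derlin-2 line had 8 arrays. The labels do not say that arrays of a group came from separate mice, so the p-values measure the spread between these arrays, which may be technical.

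IGF1 and IGF2 are secreted growth factors that signal through the IGF1 receptor to the PI3K, AKT and mTOR pathway. Binding proteins hold them outside cells and set how much ligand is free. PAPP-A, the product of Pappa, is a metalloprotease that cleaves IGFBP4 and IGFBP5 and so releases bound ligand, and stanniocalcin-2, the product of Stc2, inhibits PAPP-A. In the brain, IGF1 supports growth and survival of neurons and is made by neurons and microglia, while IGF2 and IGFBP2 are abundant in choroid plexus and meninges. Stc2 is also a gene of the response to stress in the endoplasmic reticulum (ER), the compartment where the Derlin proteins act in the removal of misfolded proteins.

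Levels are log2 intensities relative to the 75th percentile of intensity of the same array, so 0 is the level of a fairly bright probe. That percentile lay between 890 and 1169 intensity units, and between 57.7% and 68.4% of the spots of an array were called well above background when scanned. All 10 markers of granule neurons and all 10 of Purkinje cells were measured, with mean levels of 3.92 to 4.70 and 4.95 to 5.40. Derl1 did not separate the labels: its probe lay between 0.14 and 0.94 on the Derlin-1 KO arrays and between 0.76 and 1.22 on their controls, and whether it lies in the deleted part was not tested. Derl2 lay between 0.18 and 0.48 on 3 Derlin-2 KO arrays and at 1.72 on the library labelled Derlin-2 KO vehicle 1, against 1.40 to 1.58 on their controls. Derl3, a paralog induced by ER stress, lay between -0.63 and 0.37 on 7 of 8 Derlin-1 KO arrays and at -2.27 on the library labelled Derlin-1 KO 4PBA b, against -3.14 to -1.69 on controls of the line. Derl3 on the library labelled Derlin-2 KO vehicle 1 was -1.85, above all 4 controls of its line (-3.03 to -2.75) and within the -1.96 to -0.61 of the other Derlin-2 KO arrays. The labels of these 2 arrays may be wrong, which was not tested, so both are named here as libraries with their labels. The main differences that include them are also given without them. Microglial markers, Eif4ebp1 and Pappa also set the library labelled Derlin-1 KO 4PBA b apart, so differences without it are a description.

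The promoters of Stc2 and Igf1 are shown because these were the members with the highest levels in Derlin-1 KO mice relative to controls. Each line holds the 250 bases before the RefSeq transcription start (build GRCm38.p6), read 5′ to 3′ on the gene's strand, with the CCAAT box in capitals; in both it lies on the opposite strand and so reads ATTGG.
Stc2: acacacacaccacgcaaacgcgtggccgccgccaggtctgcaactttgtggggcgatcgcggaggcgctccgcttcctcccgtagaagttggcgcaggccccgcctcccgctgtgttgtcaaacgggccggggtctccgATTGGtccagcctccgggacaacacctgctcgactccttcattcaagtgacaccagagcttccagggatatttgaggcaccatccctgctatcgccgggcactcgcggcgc
Igf1: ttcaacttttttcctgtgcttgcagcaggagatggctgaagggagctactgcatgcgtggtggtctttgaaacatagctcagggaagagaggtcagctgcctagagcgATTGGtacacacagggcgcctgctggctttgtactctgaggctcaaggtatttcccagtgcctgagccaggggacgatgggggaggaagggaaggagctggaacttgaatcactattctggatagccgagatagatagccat
The Stc2 stretch is chr11:31370062-31370311 on the minus strand, and the Igf1 stretch is chr10:87860861-87861110 on the plus strand. CCAAT, searched on both strands, begins 111 bases before the start of Stc2 and 142 before that of Igf1. Of the 13 promoter entries of 9 members it was in 3, the third being 1 of 4 entries of Igf2, and it was in 33.8% of all 32851 mouse promoters of the same length. TGATGNAAT, letters bound by C/EBP-ATF dimers in stress-responsive genes, was in none of the 13 and in 0.816% of all. The ER stress response element (ERSE), which joins CCAAT to CCACG, was in none of the 13 and in 0.113% of all. TATAAA was in the entry of Igfbp4 and in 12.4% of all promoters. A match describes these letters in this window and is not evidence of binding.

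Pappa, the protease, had the widest range of the 10 genes, from -3.64 to -0.20 over the 24 arrays. Without 4PBA its level was -1.38 and -1.47 in numbered controls and -3.38 and -3.05 in numbered Derlin-1 KO mice. In the lettered series it was -0.97 and -1.32 in controls and -3.64 and -2.80 in KO mice. All 4 KO arrays lay below all 4 controls, with no overlap on either slide. Groups lay apart the same way on both slides for 5 of 10 members, beside 23.9% of all genes, which is a description because this comparison chose the members. The mean difference on the log2 scale was -1.93 (SE 0.45, n = 4 against 4), a 3.81-fold lower level, and it was -1.79 in the numbered series and -2.07 in the lettered one.

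With 4PBA, Pappa was at -0.87 and -2.39 in numbered controls and at -2.80 and -2.98 in numbered KO mice. In the lettered series controls had -0.92 and -0.25, KO array a had -3.07, and the library labelled Derlin-1 KO 4PBA b had -0.45. Thus 3 of 4 KO arrays lay below every control of their slide and the fourth lay within the controls. The difference was -1.22 (SE 0.45) and did not pass (limma adjusted p = 0.264). Without the library labelled Derlin-1 KO 4PBA b it was -1.87 (SE 0.32). The Pappa level of that library was among the values that set it apart, and its group then lacked a replicate. No pass is therefore read from that fit. Over all 35 alternatives the limma adjusted p ran up to 0.998.

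Stc2, the inhibitor, was the dimmest of the members and was well above background on 16 of 24 arrays. Without 4PBA it was at -5.62 and -5.67 in numbered controls and at -4.94 and -3.62 in numbered Derlin-1 KO mice. Lettered controls had -4.94 and -5.90, and lettered KO mice had -4.35 and -4.37. KO arrays lay above the controls of their own slide in both series. The difference was 1.21 (SE 0.39, n = 4 against 4), a 2.32-fold higher level, with 1.36 in the numbered series and 1.06 in the lettered one. With another background correction (normexp) it was 0.41.

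With 4PBA, Stc2 was not well above background on either numbered control, which read -6.10 and -5.86, and was at -5.33 and -4.92 in numbered KO mice. That is at least 1.28-fold higher in the KO mice, where the dim arrays take the higher of their own reading and the lowest level called well above background. Lettered controls had -5.36 and -5.35, KO array a had -4.91, and the library labelled Derlin-1 KO 4PBA b had -6.65, which was not well above background. In both series the KO arrays other than b thus lay above their controls. For KO mice with 4PBA against none, the numbered arrays, all of them well above background, differed by -0.84. Without the library labelled b the difference over both series was -0.70 (SE 0.36).

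Igf1, the main ligand, was at -2.49 and -2.17 in numbered controls without 4PBA and at -1.51 and -1.39 in KO mice. In the lettered series controls had -1.82 and -2.45 and KO mice had -1.34 and -1.42. Each KO array lay above both controls of its slide. The difference was 0.82 (SE 0.17, n = 4 against 4), a 1.76-fold higher level, with 0.88 and 0.75 in the numbered and lettered series. With 4PBA, numbered controls had -2.15 and -2.51 and KO mice -1.23 and -1.54, while lettered controls had -2.11 and -2.27, KO array a had -1.52 and the library labelled b had -2.34. Here again 3 of 4 KO arrays lay above every control of their slide, and the library labelled b lay below both of its own. The difference of 0.60 (SE 0.17) did not pass (limma adjusted p = 0.185). Without the library labelled b it was 0.81 (SE 0.16). That library was set apart in part by its microglial markers, and its group then lacked a replicate, so no pass is read from that fit. Over all 35 alternatives the limma adjusted p ran up to 0.998.

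**Figure D1:**
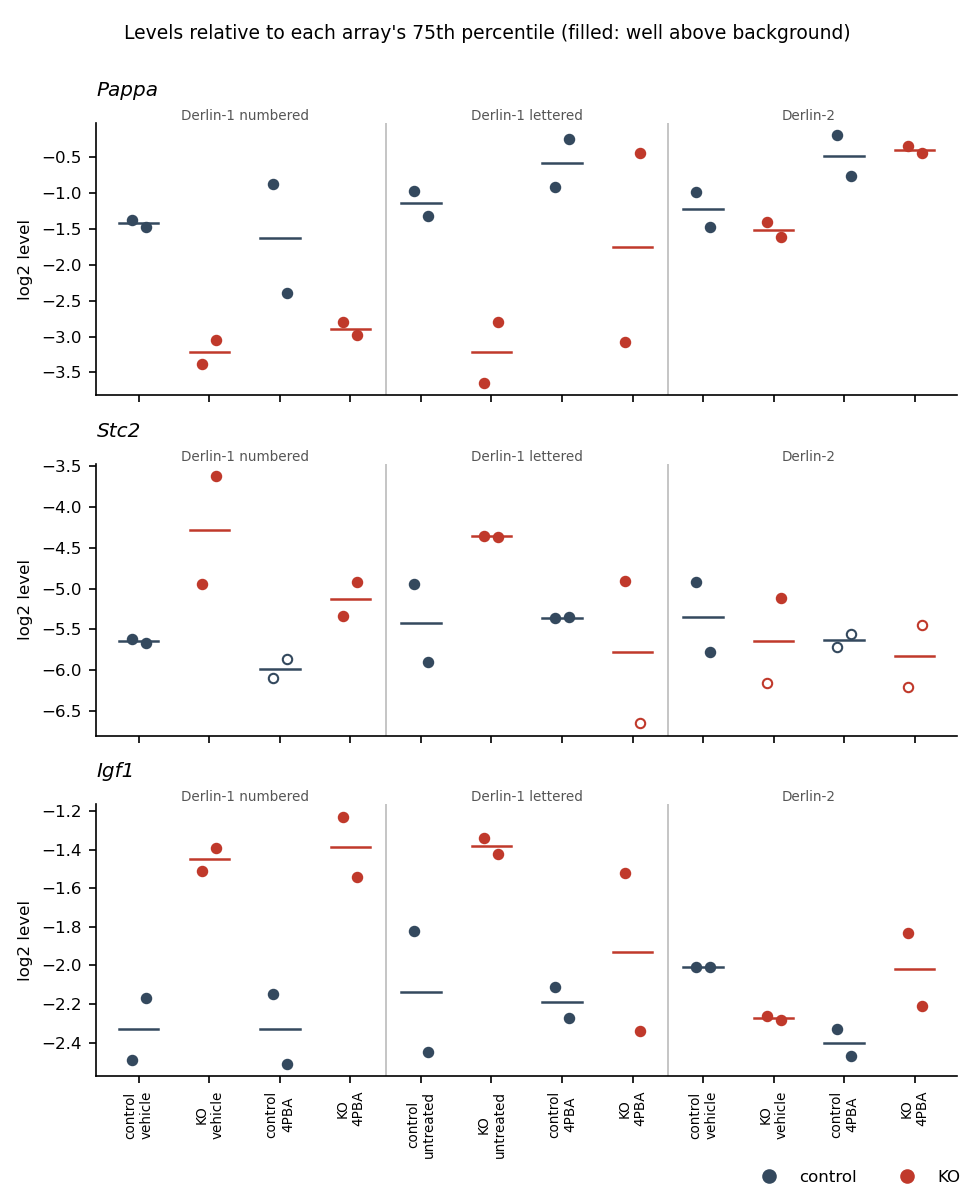
Level of Pappa, Stc2 and Igf1 on each of the 24 arrays (y axis, log2 intensity relative to the array's 75th percentile) in the 12 groups (x axis). Points are arrays, bars are group means of 2 arrays, and open points were not well above background. Pappa lies between -3.64 and -2.80 on 7 of 8 Derlin-1 KO arrays, and the library labelled Derlin-1 KO 4PBA b lies with the controls in all 3 panels or below them.

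Markers of several cell types moved with Pappa, Stc2 and Igf1 on the Derlin-1 arrays. All 10 markers of microglia, which make Igf1, were well above background on every array, and the sum of their linear levels was 15.5 to 20.2 on the 8 Derlin-1 controls and 28.6 to 37.5 on 7 Derlin-1 KO arrays. The library labelled Derlin-1 KO 4PBA b had 15.4, and the 8 arrays of the Derlin-2 line had 14.7 to 18.0. In Derlin-1 KO mice without 4PBA all 10 were above 0, 8 of them passing, with a median difference of 1.24. With 4PBA 0 passed, with a median of 0.72. Without the library labelled b, which these markers helped to set apart, the median was 1.02.

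Markers of granule neurons, the most numerous neurons of the cerebellum, were lower on the same arrays. All 10 were well above background on every array. Their sum was 451 to 492 on numbered controls and 357 to 386 on numbered KO arrays, and 349 to 378 on lettered controls and 285 to 307 on lettered KO arrays other than the library labelled b, which had 382. Without 4PBA 4 of 10 fell, with a median of -0.30. With 4PBA none passed, and the median was -0.29 without the library labelled b. Markers of leptomeninges and fibroblasts, also all 10 measured, had a sum of 21.1 to 23.2 on numbered controls and 27.4 to 29.1 on numbered KO arrays. In the lettered series it was 23.6 to 27.4 on controls, 26.3 to 28.8 on KO arrays other than b and 19.9 on b. Without 4PBA 3 of these 10 rose. The part of any of these cell types in the levels of Pappa, Stc2, Igf1 or Igf2 was not tested, and in bulk tissue fewer or more cells of a type and less or more RNA per cell cannot be told apart.

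Igf2, the other ligand, was at 1.11 and 1.24 in numbered controls without 4PBA and at 1.51 and 1.94 in KO mice, and at 1.32 and 0.71 against 1.49 and 1.01 in the lettered series. The groups were apart on the first slide, where the leptomeningeal sums were apart too, and overlapped on the second. The difference was 0.39 (SE 0.16), and a dimmer second probe of Igf2 gave 0.38 (SE 0.17). With 4PBA the difference was 0.37 (SE 0.16, limma adjusted p = 0.347), with 0.80 in the numbered series and -0.06 in the lettered one, and it was 0.50 (limma adjusted p = 0.105) without the library labelled b. Igf1r, the receptor, lay between -0.41 and 0.72. It was -0.04 and -0.23 in numbered controls without 4PBA against 0.11 and 0.13 in KO mice, and 0.28 and 0.26 against 0.72 and 0.53 in the lettered series. The difference was 0.30 (SE 0.08), the second probe gave 0.28 (SE 0.11), and scaling each array by its median instead gave 0.18. With 4PBA it was 0.06 (SE 0.08, limma adjusted p = 0.823), and 0.07 (limma adjusted p = 0.737) without the library labelled b.

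Among the binding proteins, Igfbp3, a carrier of IGFs in serum, was the one that did not overlap between Derlin-1 KO and control arrays without 4PBA on either slide. It was at 1.21 and 1.05 in numbered controls, 1.25 and 1.39 in numbered KO mice, 1.41 and 1.37 in lettered controls, and 2.21 and 1.67 in lettered KO mice. The difference was 0.37 (SE 0.12), with 0.19 in the numbered series and 0.56 in the lettered one. With 4PBA it was -0.02 (SE 0.12, limma adjusted p = 0.965), also without the library labelled b (limma adjusted p = 0.959). Igfbp4 and Igfbp5, the substrates of PAPP-A, differed by -0.10 (SE 0.13) and -0.14 (SE 0.11) without 4PBA, and by -0.22 (limma adjusted p = 0.520) and -0.07 (limma adjusted p = 0.845) with it. A second, dimmer Igfbp4 probe, well above background on 19 of 24 arrays, gave 0.02 (SE 0.24) without 4PBA. Igfbp7, a low-affinity IGF binder of vessels, differed by 0.01 (SE 0.10) and 0.02 (SE 0.10, limma adjusted p = 0.953). The differences with 4PBA were -0.22 for Igfbp4, -0.12 for Igfbp5 and 0.08 for Igfbp7 when the library labelled b was left out (limma adjusted p = 0.468, 0.663 and 0.787). Without 4PBA the 95% intervals of the difference were -0.37 to 0.17 for Igfbp4, -0.37 to 0.10 for Igfbp5 and -0.20 to 0.23 for Igfbp7, and groups of all 3 overlapped on at least 1 slide. Scaling each array by its median shifted all genes by a median of -0.13 in this comparison, which these intervals do not include.

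Igfbp2, the main binding protein of choroid plexus and fetal brain, was 0.71 and 1.14 in numbered controls without 4PBA, 1.01 and 2.08 in KO mice, 2.23 and 0.57 in lettered controls and 2.15 and 1.11 in lettered KO mice. The difference was 0.43 (SE 0.41), and 0.40 (SE 0.41, limma adjusted p = 0.742) with 4PBA, or 0.55 (SE 0.46, limma adjusted p = 0.598) without the library labelled b. Markers of choroid plexus, all 10 of which passed the filter, moved with it from array to array. Their summed level ran from 5.16 to 252, and it was 18.7 on the numbered control with 4PBA whose Igfbp2 was lowest, at -0.05, against 203 on the other array of that group, where Igfbp2 was 1.78. In Derlin-1 KO mice without 4PBA the summed level was 15.5 and 252 on the numbered and 121 and 5.16 on the lettered arrays. The part of choroid plexus tissue in the Igfbp2 and Igf2 levels was not tested.

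**Figure D2:**
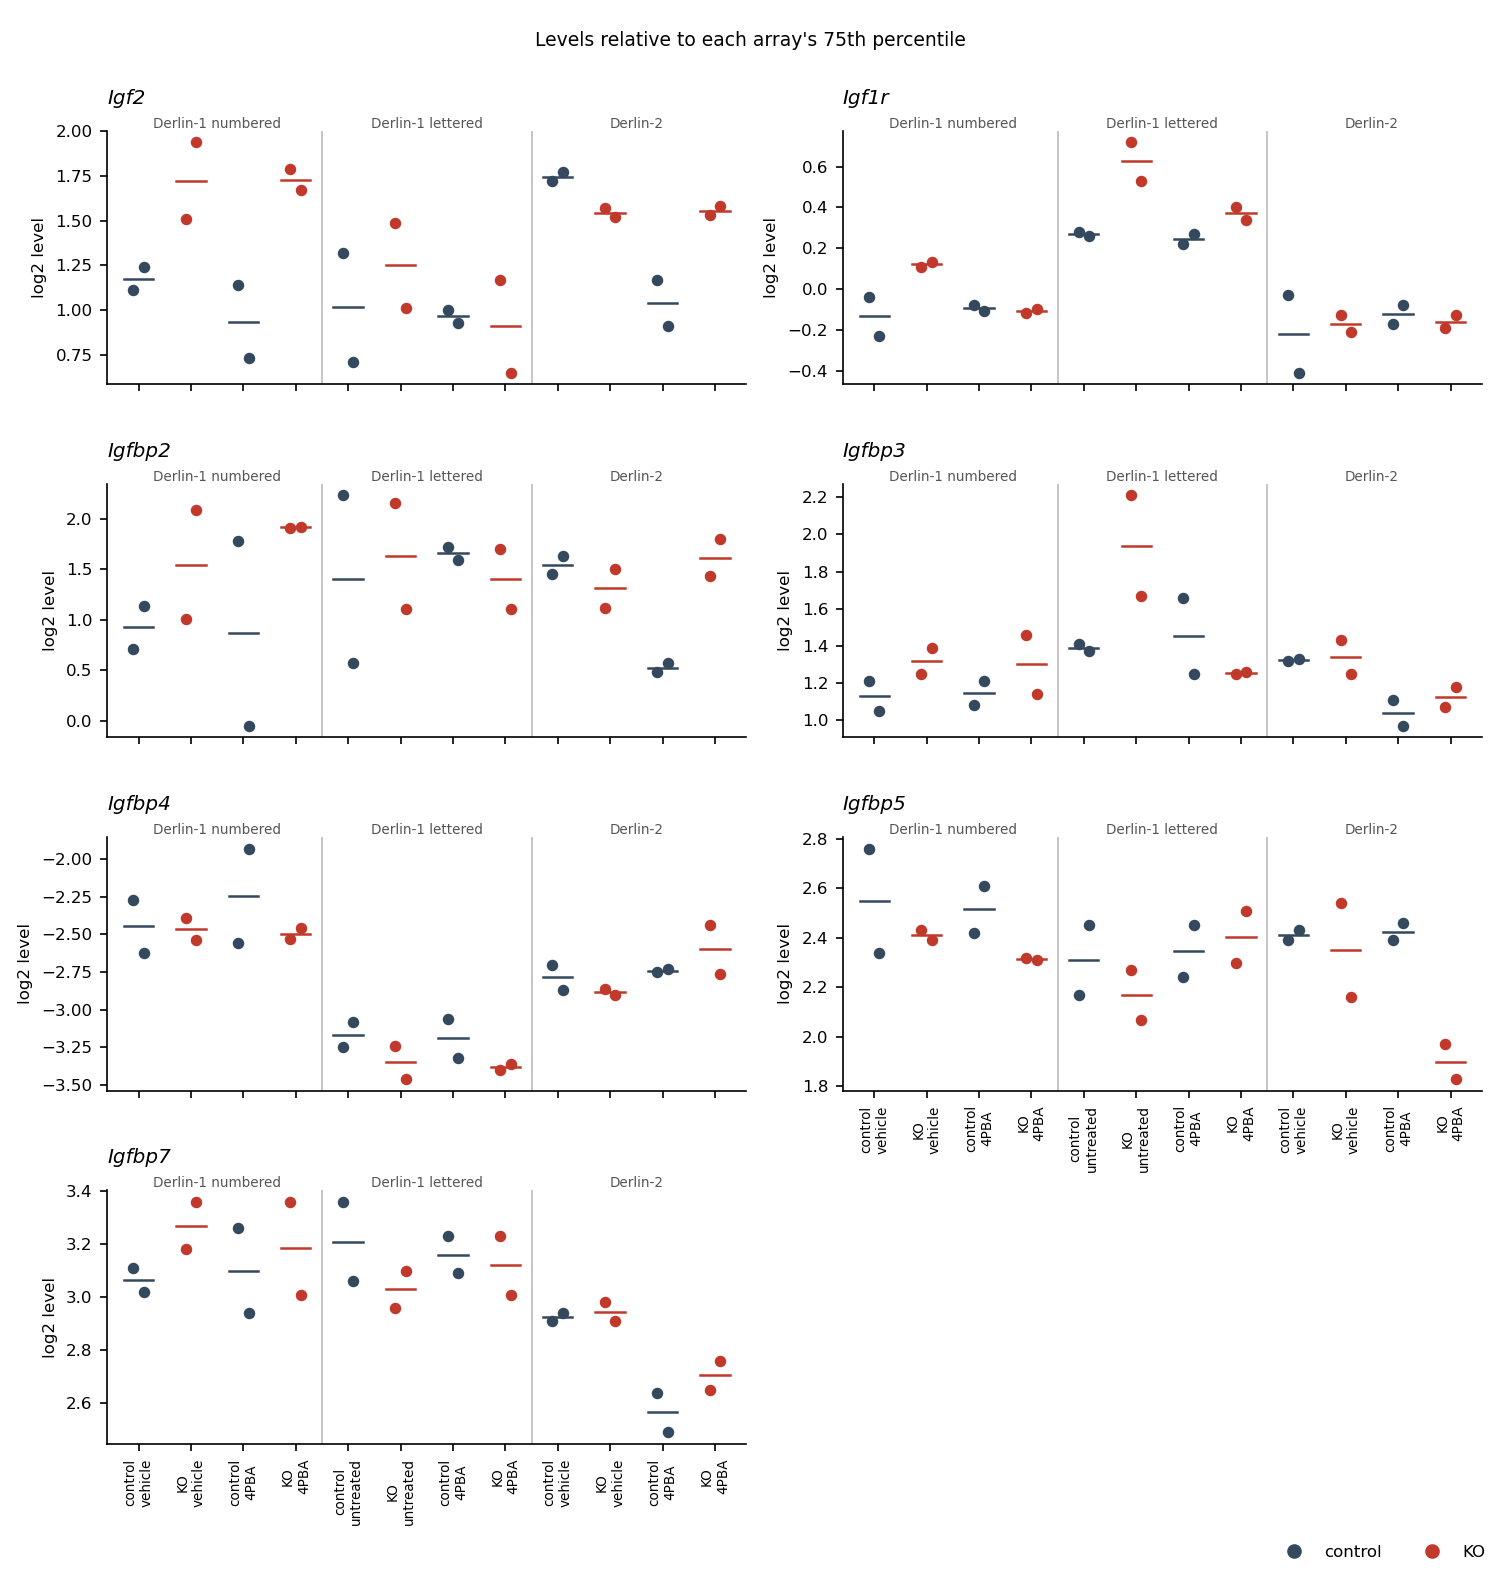
Levels of the other 7 members on each array (y axis, log2 intensity relative to the array's 75th percentile) in the 12 groups (x axis). Points are arrays and bars are means of 2 arrays. Igfbp5 is lowest in Derlin-2 KO mice with 4PBA (1.97 and 1.83), Igfbp7 is lowest on the Derlin-2 arrays with 4PBA (2.49 to 2.76), and Igfbp2 spreads from -0.05 to 2.23.

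Counted over the list, 3 of 10 members were called in Derlin-1 KO mice without 4PBA (limma adjusted p under 0.05 over all genes), beside 10.6% of all genes in that comparison, and nothing is read from this count because the comparison chose the members. Their median difference was 0.34, and that of all genes was -0.01. With 4PBA 0 of 10 were called, beside 0.0472% of all genes, 3 of 10 had an unadjusted p under 0.05, beside 12.8% of all genes, and the median over the 9 members other than Stc2 was 0.02, against -0.02 for all genes. Without the library labelled Derlin-1 KO 4PBA b its group lacked a replicate, and Pappa was among the values that set that library apart. No count is therefore read from that fit. For 4PBA against none, 0 of 10 were called in Derlin-1 controls, beside 0.0295% of all genes, and 0 of 10 in Derlin-1 KO mice, beside 0.0354%. Nothing is read from these counts either, since both comparisons share arrays with the one that chose the members. Values of the members in Derlin-1 controls under 4PBA lay between -0.15 for Igf2 and 0.18 for Pappa by the probes in the fit, and the second Igf2 probe gave -0.38 (SE 0.17). In KO mice Pappa differed by 0.89 (SE 0.45), which was 0.24 (SE 0.32) without the library labelled b, and Igfbp3 by -0.35 (SE 0.12), with -0.02 in the numbered series and -0.69 in the lettered one. Igf1r differed by -0.24 (SE 0.08), with -0.23 and -0.25, and its second probe gave -0.14 (SE 0.11). Leaving out the library labelled b gave -0.35 for Igfbp3 and -0.22 for Igf1r.

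In the Derlin-2 line with vehicle no member was called (0 of 10, beside 0.118% of all genes, with 0 at an unadjusted p under 0.05 by limma, beside 8% of all genes). Pappa was at -0.99 and -1.47 in controls, at -1.41 on the library labelled Derlin-2 KO vehicle 1, whose Derl2 was at a control's level, and at -1.62 on KO array 2. The labelled groups overlapped, and array 2 lay below both controls. The difference was -0.28 (SE 0.63, 95% interval -1.64 to 1.07, limma adjusted p = 0.959), and -0.38 (SE 0.80, limma adjusted p = 0.932) without the library labelled Derlin-2 KO vehicle 1. Stc2 was at -4.92 and -5.78 in controls and at -5.12 on KO array 2, and it was not well above background on the library labelled KO vehicle 1, which read -6.16. Igf1 was -2.01 on both controls, -2.26 on the library labelled KO vehicle 1 and -2.28 on KO array 2. The difference was -0.26 (SE 0.25, limma adjusted p = 0.860), and -0.27 (SE 0.31, limma adjusted p = 0.849) without that library. Differences of the 9 members other than Stc2 lay between -0.28 for Pappa and 0.05 for Igf1r, with a median of -0.10 against -0.01 for all genes.

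With 4PBA, Derlin-2 KO mice had 0 of 10 members called, beside 0.136% of all genes, and 2 of 10 at an unadjusted p under 0.05 by limma, beside 4.7% of all genes. Igfbp5 was 2.39 and 2.46 in controls and 1.97 and 1.83 in KO mice, the lowest of all 24 arrays. The difference was -0.53 (SE 0.15), and it did not pass (limma adjusted p = 0.575, and 0.198 to 1 over 33 alternatives). The summed level of 10 basket and stellate interneuron markers was 57.6 and 56.4 on these controls and 48.9 and 48.4 on the KO arrays, also the lowest of the 24. Of these 10 markers 1 was above 0, with a median difference of -0.08 and none passing. Pearson's r of Igfbp5 with them was 0.91 over the Derlin-2 arrays, 0.11 over the numbered arrays and -0.28 over the lettered ones. Microglial sums (16.1 to 16.2 on controls, 14.7 to 15.3 on KO arrays) were lower too. So were those of Bergmann glia and astrocytes (183 to 194 and 170 to 178), while granule neuron sums overlapped (452 to 490 and 464 to 487). The part of these cell types in the Igfbp5 value was not tested. Igf2 was 1.17 and 0.91 in controls and 1.53 and 1.58 in KO mice, a difference of 0.52 (SE 0.22, limma adjusted p = 0.986) that its second probe gave as 0.48 (SE 0.24). Igfbp2 was 0.48 and 0.57 in controls and 1.43 and 1.80 in KO mice, a difference of 1.09 (SE 0.57, limma adjusted p = 1). With 2 arrays in each group, groups did not overlap for these 3 genes, Igf1 and Igfbp7, so 5 of 10 members, beside 38.5% of all genes. The summed choroid plexus level was 35.5 and 87.0 on these controls and 168 and 226 on the KO arrays, with all 10 markers higher by a median of 1.91 and none passing, and its part in the Igf2 and Igfbp2 values was not tested. Pappa was -0.20 and -0.77 in controls and -0.35 and -0.45 in KO mice, a difference of 0.09 (SE 0.63, 95% interval -1.27 to 1.44). Stc2 was not well above background on any of the 4 arrays, so no fold is given.

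**Figure D3:**
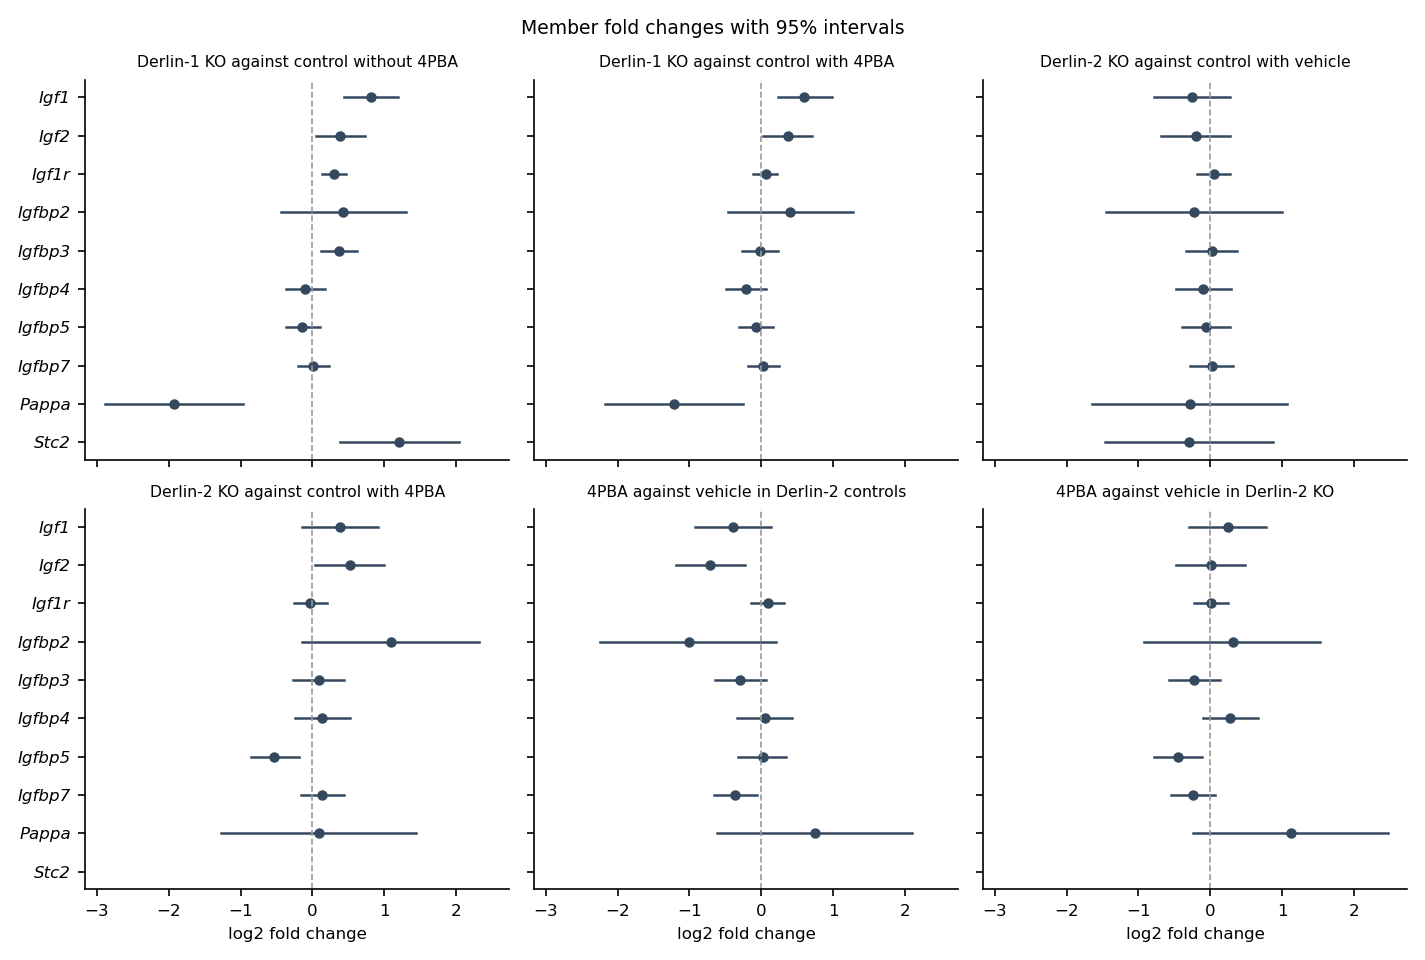
Log2 fold change of each member (points) with its 95% interval (lines) in 6 comparisons. The panel of Derlin-1 KO mice without 4PBA is a description, since that comparison chose the genes. Pappa with 4PBA has -1.22 with an interval of -2.18 to -0.26 before adjustment over genes, and Stc2 is left out where neither array of a group was well above background.

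Within the Derlin-2 line, 4PBA was set against vehicle in controls and in KO mice. In controls 0 of 10 members were called, beside 0.13% of all genes, with 2 of 10 at an unadjusted p under 0.05 by limma, beside 5.16%. In KO mice 0 of 10 were called, beside 0.136%, with 1 of 10 at an unadjusted p under 0.05 by limma, beside 9.21%. All 4 arrays with 4PBA lay apart from all 4 with vehicle for 3 of 10 members, beside 7.64% of all genes. The 3 were Pappa, Igfbp7 and Igfbp3. Pappa was higher on all 4 arrays with 4PBA (-0.77 to -0.20) than on all 4 with vehicle (-1.62 to -0.99). The differences were 0.75 (SE 0.63, limma adjusted p = 0.992) in controls and 1.12 (SE 0.63, limma adjusted p = 0.619) in KO mice, or 1.22 (limma adjusted p = 0.830) without the library labelled KO vehicle 1. Igfbp7 was lower on all 4 arrays with 4PBA (2.49 to 2.76) than on all 4 with vehicle (2.91 to 2.98). Its differences were -0.36 (SE 0.14, limma adjusted p = 0.852) and -0.24 (SE 0.14, limma adjusted p = 0.641), the second being -0.21 (limma adjusted p = 0.927) without the library labelled KO vehicle 1. The 4 arrays with 4PBA also stood apart in other measures. They had 489 to 637 outlier spots against 213 to 408 with vehicle, 57.7% to 62.9% of spots well above background against 63.5% to 66.9%, and a mean level of Purkinje cell markers of 4.95 to 5.11 against 5.20 to 5.29. The summed level of endothelial markers was 21.0 to 22.7 against 23.0 to 27.7, and that of leptomeningeal and fibroblast markers 17.9 to 21.3 against 21.5 to 23.7, with none of either list passing. The part of these in the Pappa and Igfbp7 values was not tested. Scaled by each array's median, all genes shifted by -0.13 and -0.24 in the same 2 comparisons, and Igfbp7 differed by -0.50 and -0.48.

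Igf2 in Derlin-2 controls was 1.72 and 1.77 with vehicle and 1.17 and 0.91 with 4PBA, a difference of -0.71 (SE 0.22) that did not pass (limma adjusted p = 0.690, and 0.108 to 1 over 33 alternatives). In the labelled KO groups it was 1.57 (the library labelled KO vehicle 1) and 1.52 with vehicle against 1.53 and 1.58 with 4PBA. That difference was 0.01 (SE 0.22), or 0.03 without the library labelled KO vehicle 1. The dimmer second probe of Igf2 gave -0.48 (SE 0.24) in controls and 0.28 (SE 0.24) in the labelled KO groups. Igfbp2 in controls was 1.45 and 1.63 with vehicle and 0.48 and 0.57 with 4PBA, a difference of -1.01 (SE 0.57, limma adjusted p = 0.992). The arrays with lower Igf2 and Igfbp2 were also those with the lower choroid plexus sum, 35.5 and 87.0 against 131 and 161 with vehicle, and with the lower sum of leptomeningeal markers, 17.9 and 20.1 against 22.8 and 23.7. The part of these tissues was not tested. Igfbp5 in the labelled KO groups was 2.54 (the library labelled KO vehicle 1) and 2.16 with vehicle, and 1.97 and 1.83 with 4PBA. That difference of -0.45 (SE 0.15, limma adjusted p = 0.374) was -0.26 (limma adjusted p = 0.838) without the library labelled KO vehicle 1, which had the 2.54. Its adjusted p ran from 0.053 to 0.838 over 33 alternatives.

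**Figure D4:**
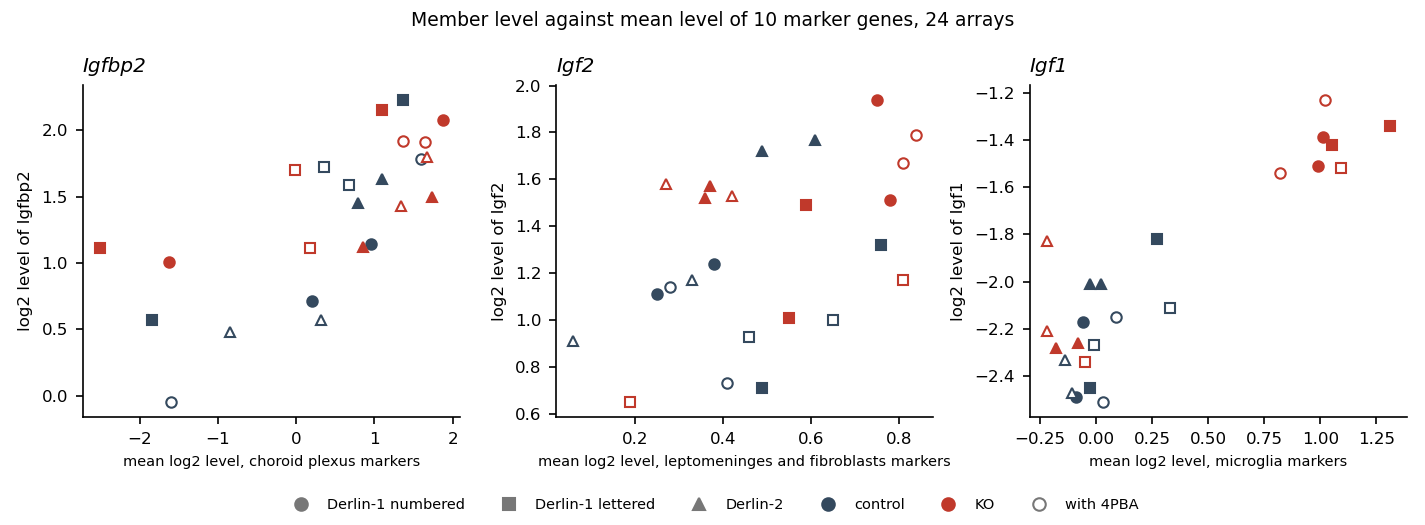
Level of Igfbp2, Igf2 and Igf1 on each of the 24 arrays (y axis, log2 intensity relative to the array's 75th percentile) against the mean log2 level of 10 markers of choroid plexus, of leptomeninges with fibroblasts, and of microglia (x axes). The 4 arrays with a choroid plexus mean of -1.60 or lower had Igfbp2 of at most 1.11, and Igf1 of -1.54 or more was seen only on the 7 arrays with a microglial mean of 0.82 or more, all Derlin-1 KO.

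The 2 lines were tested against each other only with 4PBA, since the Derlin-1 values without it had chosen the members. For the Derlin-1 minus the Derlin-2 KO effect 0 of 10 members were called, beside 0.065% of all genes, with 1 of 10 at an unadjusted p under 0.05 by limma, beside 4.12%. Pappa differed by -1.30 (SE 0.77, 95% interval -2.96 to 0.35, limma adjusted p = 1), and by -1.96 (SE 0.52, limma adjusted p = 0.163) without the library labelled Derlin-1 KO 4PBA b, the lowest adjusted p over 34 alternatives, which ran up to 1. Igfbp5 differed by 0.45 (SE 0.19, 95% interval 0.05 to 0.86, limma adjusted p = 1), and Igf1 by 0.23 (SE 0.30, 95% interval -0.42 to 0.87). Leaving out the library labelled b gave 0.40 for Igfbp5 and 0.43 for Igf1 (limma adjusted p = 0.621 and 0.746). A different Pappa response in the 2 lines was thus not shown by this test, and the intervals do not show a like response either. For the Derlin-2 KO effect with 4PBA minus that with vehicle, a comparison added after values were seen, 0 of 10 members were called, beside 0.0768% of all genes, with 1 of 10 at an unadjusted p under 0.05 by limma, beside 5.15%. Igf2 had 0.71 (SE 0.32, limma adjusted p = 0.917) and Igfbp2 1.32 (SE 0.81, limma adjusted p = 1), and all 10 choroid plexus markers were above 0, with a median of 1.53 and none passing. Without the library labelled Derlin-2 KO vehicle 1 these were 0.74 (limma adjusted p = 0.785), 1.13 (limma adjusted p = 0.983) and a marker median of 1.02.

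Ordered by mean level over the 12 groups, Pappa was lowest in the 3 groups of Derlin-1 KO mice other than lettered ones with 4PBA, the group that holds the library labelled b. Their means were -3.22 (lettered, untreated), -3.21 (numbered, vehicle) and -2.89 (numbered, 4PBA), and the highest mean was -0.40, in Derlin-2 KO mice with 4PBA. Of the 11 pairs of neighbours in that order 9 overlapped in their array values. Stc2 was highest in numbered and lettered Derlin-1 KO mice without 4PBA, with means of -4.28 and -4.36. The lettered group lay above the next one, numbered Derlin-1 KO mice with 4PBA (-5.33 and -4.92), while the numbered group (-4.94 and -3.62) overlapped with it. Igf1 was highest in the same 3 Derlin-1 KO groups in which Pappa was lowest, with means of -1.38, -1.38 and -1.45. Of these 3, the numbered group with 4PBA (-1.54 and -1.23) overlapped with the next group, and the others lay above it. That next group was the lettered KO arrays with 4PBA, with -1.52 on array a and -2.34 on the library labelled b. For both Stc2 and Igf1 10 of 11 neighbours overlapped, so the order of neighbours among the other groups is not distinguished by 2 arrays each. Groups further apart in the order can still lie apart, as Igf1 did in Derlin-2 controls with vehicle (-2.01) and with 4PBA (-2.47 to -2.33). Across the other 7 members the neighbours that overlapped numbered from 7 of 11 (Igf1r) to 10 of 11 (Igf2, Igfbp2, Igfbp4 and Igfbp5). For the probes in the fit, the arrays of all 4 lettered groups lay apart from the rest for Igf1r, at 0.22 to 0.72, and for Igfbp4, at -3.46 to -3.06, so slide and series cannot be told apart in their order. The second Igfbp4 probe had the lettered groups highest, with means of -4.93 to -4.69. Means of the second Igf1r probe were -0.18 to 0.14 in the lettered groups and -0.53 to -0.24 in the others, with spreads that overlapped.

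The genes with the pattern most like each member were found by Pearson's r of log2 level over the 24 arrays, after each slide's own mean was subtracted, among 14265 genes well above background on all arrays. These r values describe arrays that share slides and the KO contrast, and carry no test. Pappa was most like Sptb (r = 0.94), an erythroid and neuronal spectrin, Vwa7 (r = 0.93) and Cdk19 (r = 0.92), a kinase of the Mediator complex. In the Derlin-2 line alone these r were 0.96, 0.52 and 0.70. Sptb differed by -0.45 and Vwa7 by -1.05 in Derlin-1 KO mice without 4PBA. Stc2 was most like Ddost (r = 0.84), a subunit of the ER oligosaccharyltransferase, Wnt5a (r = 0.83), a Wnt ligand, and Cst3 (r = 0.82), a protease inhibitor. Stc2 was well above background on 16 of the 24 arrays, and on the 8 arrays of the Derlin-2 line these r were 0.65, 0.58 and 0.53. Igf1 was most like C1qa (r = 0.94), a complement gene of microglia and one of the markers above, whose difference was 1.43. On the 8 arrays of the Derlin-2 line alone that r was 0.59. Igf2 was most like Gm4788 (r = 0.93), Igfbp2 like Ccdc113 (r = 0.97), a gene of cilia, Igf1r like Sspo (r = 0.83), Igfbp3 like Msi2 (r = 0.85), Igfbp5 like Ptprn2 (r = 0.77), Igfbp7 like Gar1 (r = 0.81) and Igfbp4 like Atp2b4 (r = 0.72). The last of these rested on some slides, with -0.15 in the lettered series, and that of Igfbp3 was 0.18 in the numbered series.

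Of 42 other genes of the pathway 37 passed the filter, and in Derlin-1 KO mice without 4PBA 4 rose and 3 fell (18.9% called, against 10.6% of all genes). Nothing is read from this share, because this comparison chose the members and the list was made with earlier results known. The values are mRNA levels, and activity of the pathway was not measured. In the list group of AKT and mTOR components and targets, Eif4ebp1, which codes for the translation repressor 4E-BP1, rose by 2.28 (SE 0.33, limma adjusted p = 0.00242). It was -1.85 to -1.39 on the 4 controls and -0.19 to 1.48 on the KO arrays. Foxo1, a transcription factor held back by AKT, rose by 0.49 (limma adjusted p = 0.0318), and Rptor, the mTORC1 scaffold, fell by 0.27 (limma adjusted p = 0.0311). Of the 8 adaptors, Grb14, which inhibits receptor signalling, rose by 0.40 (limma adjusted p = 0.0415) and Shc1 by 0.38 (limma adjusted p = 0.0260). Insrr, a receptor related to the insulin receptor, fell by 1.02 (SE 0.19, limma adjusted p = 0.00630), and Igfbp6, a binding protein that prefers IGF2, fell by 0.41 (limma adjusted p = 0.00536). Igfbp6 was 2.27 and 2.34 on numbered controls and 2.04 and 2.25 on numbered KO arrays. Its gap was wider in the lettered series, with 2.97 and 2.71 on controls and 2.19 and 2.20 on KO arrays. The 9 genes of the PI3K and AKT group, the growth hormone arm and the IGF2 mRNA-binding proteins had none called. In each of the other 9 comparisons 0 of 37 were called with all arrays. With 4PBA Eif4ebp1 differed by 1.45 (SE 0.33, limma adjusted p = 0.111) in Derlin-1 KO mice, with -1.46 on the library labelled b, against -1.09 and -1.31 on its controls. Without that library, a fit added after values were seen, Eif4ebp1 had 2.03 (SE 0.12) and Insrr -0.81 (SE 0.16). The Derlin-1 minus the Derlin-2 KO effect with 4PBA was then 1.90 for Eif4ebp1 (SE 0.20). The Eif4ebp1 level of that library was among the values that set it apart, and its group then lacked a replicate. These values are therefore a description, and no test is read from them. In Derlin-2 KO mice Eif4ebp1 differed by 0.14 with vehicle and 0.12 with 4PBA (limma adjusted p = 0.977 and 1), the first being 0.23 (limma adjusted p = 0.946) without the library labelled Derlin-2 KO vehicle 1.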

How the data were processed

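RNA of mouse cerebellum was hybridised to 24 Agilent arrays in 1 colour. The deposited intensity of each spot was the processed signal, which the authors' scanner software (Agilent Feature Extraction 10.7.1.1, per the submitters' processing notes) had corrected for background, per the file headers, and no step between arrays is recorded there. Control spots and outlier-flagged spots were left out. Log2 signals were lowered by each array's 75th percentile. Gene symbols came from the GRCm38.p6 RefSeq table through transcript accessions (32994 of 56605 probes matched); the headers name another build, so the only coordinates given are those of RefSeq promoters. The filter kept a probe when 1 or more groups had it well above background on both arrays, and 1 probe per gene, the brightest, entered the fit (16935 genes). All 24 arrays were fitted with a mean per group in limma 3.58.1 (R 4.3.3), Derlin-1 comparisons being the equal-weight average of its 2 series, with two-sided tests and Benjamini-Hochberg adjustment over all genes (called under 0.05). The fit was tested on simulated data. The median SE was 0.11 in Derlin-1 and 0.15 in Derlin-2 comparisons, and 2 arrays per group limit the precision. Each series lay on 1 slide of 8 arrays. Members and lists were chosen with earlier results of these data known. Named genes were the 10 members, Derl1 to Derl3, called genes of the pathway list and the genes most like each member, plus markers.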

Additional observations from a re-analysis of the deposited data

Results flagged for a closer look

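Each of these values is a difference between 2 log2 fold changes in which every array of one group moved one way and every array of the other the opposite way. Igf1 differed by 1.07 between the Derlin-1 KO effect without 4PBA (0.82) and the Derlin-2 KO effect with vehicle (-0.26), and this difference was not tested because the first comparison chose the members. Igf1 differed by -0.63 between the Derlin-2 KO effect with vehicle (-0.26) and with 4PBA (0.38), and by the same -0.63 between the 4PBA effect in Derlin-2 controls (-0.39) and KO mice (0.24), which is the same contrast. Igf2 differed by -0.71 between the Derlin-2 KO effect with vehicle (-0.20) and with 4PBA (0.52). A test of these differences, added after they were seen, gave limma adjusted p-values of 1 for Igf1 and 0.917 for Igf2 (unadjusted 0.0898 and 0.0408), and 0.912 and 0.785 without the library labelled Derlin-2 KO vehicle 1, where the differences taken as 4PBA minus vehicle were 0.64 and 0.74, against 0.63 and 0.71 with it in the same direction. Igfbp5 differed by -0.32 between the numbered (-0.09) and lettered (0.23) series when Derlin-1 KO mice with and without 4PBA were compared, which was not tested.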

How the results depend on the processing

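All 10 members were refitted under 11 other settings and with each of 24 arrays left out. Of 3380 recomputed fold changes 109 took another sign, in 46 of 100 results, none with a reported size above 0.40. In Derlin-1 KO mice without 4PBA 3 members were called as reported (beside 10.6% of all genes), 5 with a replicate block (12.9%), 0 in the numbered series alone (0.0118%), 0 in the lettered series alone (3.54%), and 1 to 4 with 1 array left out (3.86% to 16.5%), with 1 called without lettered control untreated a (5.8%) or lettered KO untreated a (3.86%). With 4PBA the count was 0 as reported and 0 to 2 with 1 array left out (2 without lettered KO 4PBA b, beside 6.18% of all genes), and for 4PBA in Derlin-1 KO mice 0 to 1 (1 without lettered KO 4PBA a, beside 1.14%). The causes of these changes in count were not tested. Leaving out an array leaves its group without a replicate, so no call is read from those fits. Replicate numbers were not taken as pairs in the reported fit, since not every correlation of same-numbered deviations was above 0.1. These correlations ran from -0.159 to 0.351 (median 0.086) in the numbered series. In the lettered series they ran from -0.0438 to 0.404 (median 0.14), and in the Derlin-2 series from -0.0435 to 0.0986 (median 0.068). All medians were above 0, so pairing is not excluded. Genes called over all settings ran from 2 to 2788 in Derlin-1 KO mice without 4PBA (1800 reported) and from 0 to 1047 with it (8), and from 2 to 82 (20) and 7 to 60 (23) in Derlin-2 KO mice with vehicle and 4PBA. For 4PBA they ran from 0 to 25 (5) and 0 to 193 (6) in Derlin-1 controls and KO mice, and from 0 to 1279 (22) and 6 to 1843 (23) in Derlin-2 controls and KO mice. Differences between lines and between Derlin-2 treatments had 0 to 109 (11) and 0 to 28 (13). Scaling by each array's median shifted all genes by -0.13 in Derlin-1 KO mice without 4PBA and turned the share of higher calls there from 49.4% to 28.5%, from 27.3% to 11.1% in Derlin-2 controls given 4PBA, and from 82.6% to 36.4% in Derlin-2 KO mice given 4PBA. With normexp, run on median spot signals and chosen after seeing the data in place of mean signals, Pappa differed by -1.43, Igf1 by 0.65 and Stc2 by 0.41 in Derlin-1 KO mice without 4PBA. Signal over background limits Stc2, which was dim on 8 of 24 arrays.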
